A study of Mus musculus with 20 samples.

Results

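The data described here are the counts of 10 immediate early genes of neurons, Fos, Fosb, Arc, Egr1, Egr2, Egr4, Npas4, Nr4a1, Junb and Dusp1, in the left hippocampus of 20 female C57BL/6 mice. They were taken by name from a table of 39056 genes, and each name matched 1 ENSEMBL gene. The 4 groups held 5 mice each and crossed miR-34a genotype with transgene. They are called WT Non-Tg and KO Non-Tg without the transgene, and WT Tg-SwDI and KO Tg-SwDI with it. The KO was a constitutive deletion of Mir34a in the whole body, and Tg-SwDI mice carried human APP with the Swedish, Dutch and Iowa mutations under the Thy1 promoter, which is active in neurons. All groups had gone through open-field, plus-maze and water-maze tests at about a year of age, and all were perfused with cold PBS under ketamine and xylazine before the tissue was taken. The time between the last test and the perfusion, the time of day and the order of the mice were not given in the sources used here.

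Immediate early genes are transcribed within minutes of a strong input to a neuron, without new protein synthesis. Calcium entry through NMDA receptors and voltage-gated channels activates kinases, which act on factors already bound at these genes, CREB at the cAMP response element, SRF with its ternary complex partners at the CArG box, and MEF2. The mRNAs are short-lived, so that their level reflects the recent past of the cell, and in the hippocampus they are used as markers of neurons engaged by exploration, learning or seizures.

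Each library held 19549622 to 21066868 counted reads. Levels are given below as CPM, the count of a gene scaled by the size of its library and by TMM factors. All 10 genes passed the filter on low counts with 16107 genes in all. Thy1, which checks the transgene labels, was at 684 to 769 CPM in all 10 mice without the transgene and at 1903 to 3316 CPM in all 10 that carried it. Mir34a itself was not analysed here, so the KO labels were not checked by their target. The share of counts on mitochondrial genes was 14.6% in mouse 8 of KO Tg-SwDI and 6.94% to 8.76% in the other mice. None of the markers used for neurons, dentate granule cells and the CA fields was at 0 in any group.

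Arc, Egr1 and Junb were the most abundant of the 10 per length. The median over the 20 mice was 51.7 CPM per kb of exon for Arc, 36.7 for Junb, 35.8 for Egr1 and 21.2 for Nr4a1. Egr4 followed at 12.7, Dusp1 at 7.84, Fos at 6.53, Npas4 at 3.20, Fosb at 1.91 and Egr2 at 0.888 CPM per kb. The ranges over the 20 mice overlapped between all neighbours in that order. Egr2, with 9 to 132 counts in a mouse, had the widest range over the mice, with the highest mouse 15.6 times the lowest, and Junb the narrowest, at 2.03 times.

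**Figure D1:**
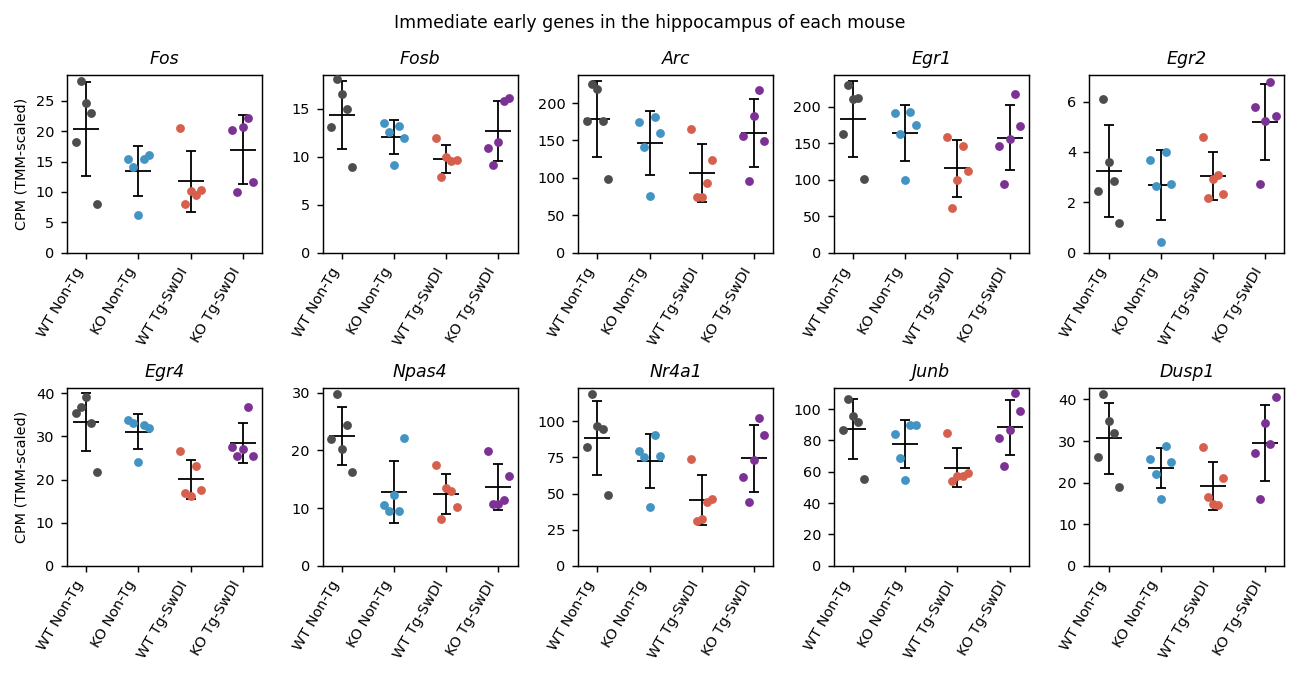
CPM of each gene (y axis, from 0, on a separate scale for each gene) in each of the 20 mice by group, with 1 point a mouse and the mean and SD of each group of 5 in black. In WT Tg-SwDI mice 9 of the 10 genes had a mean below that in WT Non-Tg mice by more than 25%, with Egr2 the exception, and for every gene the points of the groups overlapped.

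Fos, Fosb and Junb encode subunits of AP-1, the dimeric factor that a FOS and a JUN protein form. Fos (chromosome 12, 85473890 to 85477273 in mm10) was at 28.2, 24.6, 22.9, 18.1 and 8.01 CPM in WT Non-Tg mice, and at 20.5, 10.3, 10.2, 9.51 and 8.08 CPM in WT Tg-SwDI mice. In the KO mice Fos was at 16.0005, 15.4, 15.3, 14.1 and 6.17 CPM without the transgene and at 22.2, 20.8, 20.2, 11.6 and 9.96 CPM with it. The lowest WT Non-Tg mouse lay below every WT Tg-SwDI mouse, and the highest WT Tg-SwDI mouse lay among the other 4 Non-Tg mice. Fosb (chromosome 7, 19302696 to 19310051) ranged from 8.87 to 18.04 CPM in WT Non-Tg and from 7.85 to 11.9 CPM in WT Tg-SwDI mice, and Junb (chromosome 8, 84974484 to 84978718) from 55.6 to 106 and from 54.4 to 84.6 CPM.

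Egr1, Egr2 and Egr4 encode zinc finger factors that bind GC-rich sites, Egr1 being the one used most as a marker of plasticity in the hippocampus. Egr4 (chromosome 6, 85511121 to 85513589) was at 39.1, 36.8, 35.5, 33.1 and 21.8 CPM in WT Non-Tg mice, and at 26.55, 23.2, 17.5, 16.9 and 16.1 CPM in WT Tg-SwDI mice. It was at 33.8, 33.2, 32.6, 32.0 and 24.0 CPM in KO Non-Tg and at 36.8, 27.6, 27.0, 25.5 and 25.4 CPM in KO Tg-SwDI mice. The WT Tg-SwDI group had the lowest mean, and 3 of them lay below every WT Non-Tg mouse. Egr1 (chromosome 18, 34859823 to 34864984) averaged 183 ± 52.2 CPM (SD, n = 5) in WT Non-Tg and 116 ± 38.9 in WT Tg-SwDI mice, with the KO groups between them, at 165 ± 38.4 for KO Non-Tg and 158 ± 44.9 for KO Tg-SwDI. Egr2 (chromosome 10, 67535475 to 67542188) had its highest mean in KO Tg-SwDI mice, as Junb did, at 5.18 ± 1.502 CPM (SD, n = 5) against 2.69 to 3.24 CPM in the other groups.

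Arc, Npas4, Nr4a1 and Dusp1 have roles of their own. Arc (chromosome 15, 74669083 to 74672570) encodes a protein of dendrites that promotes the removal of AMPA receptors from synapses, and it averaged 179 ± 50.8 CPM (SD, n = 5) in WT Non-Tg and 106 ± 39.0 in WT Tg-SwDI mice. In the KO it averaged 146 ± 42.7 CPM (SD, n = 5) without the transgene and 160 ± 45.1 with it. Nr4a1 (chromosome 15, 101254269 to 101274795) encodes an orphan nuclear receptor. It was at 119, 96.9, 94.4, 81.9 and 49.3 CPM in WT Non-Tg and at 73.9, 46.4, 44.1, 32.6 and 31.2 CPM in WT Tg-SwDI mice, so that 4 Tg-SwDI mice lay below every Non-Tg mouse. Npas4 (chromosome 19, 4984355 to 4990316) encodes a factor that responds to calcium in neurons and directs inhibitory synapses. It was at 29.7, 24.5, 22.1, 20.2 and 16.3 CPM in WT Non-Tg, and at 17.4, 13.4, 13.0, 10.1 and 8.18 CPM in WT Tg-SwDI mice. The KO mice resembled the latter in mean, with Npas4 at 22.1, 12.3, 10.5, 9.57 and 9.44 CPM without the transgene and at 19.9, 15.6, 11.5, 10.8 and 10.7 CPM with it. Dusp1 (chromosome 17, 26505590 to 26562128), a phosphatase that switches off MAP kinases, averaged 30.6 ± 8.55 CPM (SD, n = 5) in WT Non-Tg and 19.1 ± 5.84 CPM in WT Tg-SwDI mice. The annotated span of Dusp1 holds transcripts with starts far apart, and the share of its counts from the upstream stretch was not checked, which bears on its level and its level per length.

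Tg-SwDI was first compared with Non-Tg in miR-34a WT mice, which asks how the transgene relates to these genes where miR-34a was present. Egr4 fell, by 0.73 on the log2 scale (SE 0.17, edgeR quasi-likelihood test, adjusted p = 0.0114), and it was the 1 gene of the 10 called at an FDR under 0.05, where 4.41% of the 16107 genes tested were called. All 10 genes had a negative log2 fold change, with a median of -0.70 against 0.00 over all genes tested, and 9 had an unadjusted p under 0.05, where 5.54% of all genes tested had one with a negative change. The exception was Egr2, with a log2 fold change of -0.09 and a 95% interval of -0.99 to 0.81. The point estimates were -0.95 for Nr4a1 (adjusted p = 0.0916), -0.86 for Npas4 (adjusted p = 0.0843), -0.80 for Fos (adjusted p = 0.289) and -0.75 for Arc (adjusted p = 0.219). Those of Dusp1, Egr1, Fosb and Junb lay between -0.68 and -0.48 with adjusted p-values between 0.106 and 0.261. In 9 of the 10 genes all 5 Tg-SwDI mice were below the median of the Non-Tg mice, and in none were the groups free of overlap. The 10 genes varied together over the same mice, with a median correlation of 0.83 between pairs, as described below. Counts of genes in this comparison and in those below are therefore not counts of independent results.

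The count of genes called in that comparison moved with single mice and with the test. Without mouse 7 of WT Non-Tg, the lowest of its group for 10 of 10 genes, Egr4, Fosb and Nr4a1 were called (3 of 10). Without mouse 3 of WT Tg-SwDI, the highest of its group for 10 of 10 genes, Egr4, Nr4a1 and Npas4 were called (3 of 10), and without mouse 8 of KO Non-Tg, which enters only the estimate of the spread, Egr4 and Npas4 (2 of 10). DESeq2 called Egr4, Fosb, Nr4a1 and Npas4 (4 of 10), edgeR's exactTest called Egr4, Nr4a1 and Npas4 (3 of 10), and a fit to the 2 groups alone called 0, with an adjusted p of 0.0709 for Egr4.

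**Figure D2:**
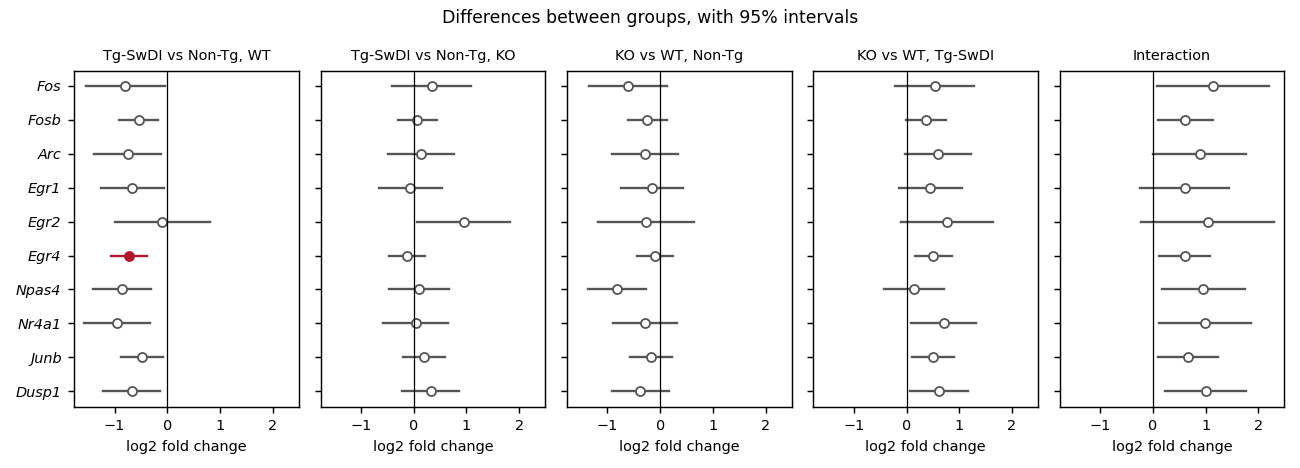
Log2 fold change (x axis) of each gene (y axis) in the 4 comparisons of groups and in the interaction, with 95% intervals from edgeR; the filled red point is the 1 called at an FDR under 0.05. All 10 point estimates lay below 0 for Tg-SwDI against Non-Tg in WT mice and above 0 for KO against WT in Tg-SwDI mice.

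In miR-34a KO mice the differences between Tg-SwDI and Non-Tg had no common direction. Of the 10 genes 8 had a positive and 2 a negative log2 fold change, with a median of 0.12, and 0 were called by edgeR, DESeq2 or the exactTest, where edgeR called 20.8% of the genes tested. That split moved with the replicate block and with single mice left out, as given below. Egr2 had the largest estimate, 0.94 with a 95% interval of 0.06 to 1.83, and was the 1 gene of the 10 with an unadjusted p under 0.05 (adjusted p = 0.121), where 33.5% of all genes tested had one. Egr4 was at -0.13, with an interval of -0.47 to 0.21. Averaged over WT and KO mice, Egr4 was again the 1 gene called for the transgene, at a log2 fold change of -0.43 (SE 0.12, edgeR, adjusted p = 0.0153), where 17.2% of genes were called. That average shares its mice with the comparisons above.

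The miR-34a KO was compared with WT in Tg-SwDI mice, which asks how the loss of miR-34a relates to these genes beside the transgene. All 10 genes had a positive log2 fold change, with a median of 0.52, from 0.14 for Npas4 to 0.77 for Egr2, and 4 of them, Egr4, Junb, Dusp1 and Nr4a1, had an unadjusted p under 0.05, where 10.8% of genes tested had one with a positive change. None was called by edgeR (0 of 10, where 1.99% of genes were called), and DESeq2 called Egr4. The estimate for Egr4 was 0.50 with a 95% interval of 0.15 to 0.86 (edgeR, adjusted p = 0.116), and all 5 KO mice were above the median of the WT mice for Egr4, Arc, Nr4a1 and Junb. The WT Tg-SwDI mice are shared with the comparison of Tg-SwDI and Non-Tg above, so that the same 5 mice enter both.

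In Non-Tg mice all 10 genes had a negative log2 fold change for KO against WT, with a median of -0.28. None was called (0 of 10) by edgeR, DESeq2 or the exactTest, and edgeR called 0% of all genes tested, where 1302 had an unadjusted p under 0.05, DESeq2 called 7 genes and the exactTest 4. Npas4 stood furthest from 0, at -0.82 with a 95% interval of -1.37 to -0.27 (edgeR, adjusted p = 0.508), and was the 1 gene of the 10 with an unadjusted p under 0.05. Its 5 KO mice included 4 below every WT mouse and 1, mouse 8, at 22.1 CPM among the WT mice. Averaged over Non-Tg and Tg-SwDI mice, 0 of the 10 genes were called for the KO by edgeR or DESeq2, none had an unadjusted p under 0.05, and 0.0807% of genes were called by edgeR.

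Whether the difference made by the KO itself differed between Tg-SwDI and Non-Tg mice was tested as an interaction. All 10 genes had a positive interaction, with a median of 0.92 on the log2 scale, from 0.60 for Egr4 and Egr1 to 1.14 for Fos. Of these, 7 had an unadjusted p under 0.05, where 9.38% of all genes tested had one in that direction, and 0 were called by edgeR or DESeq2, where edgeR called 0.608% of genes. The lowest adjusted p was 0.177, for Dusp1, with an interaction of 1.002 and a 95% interval of 0.23 to 1.77.

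The cells of the tissue were compared by marker genes beside these results, since in bulk tissue fewer cells of a type and less RNA per cell cannot be told apart. In Tg-SwDI against Non-Tg WT mice 0 of 8 neuron markers were called by edgeR (1 at an unadjusted p under 0.05, and 1 by DESeq2), with a summed level of 6934 to 7678 CPM in Non-Tg and 6616 to 7228 CPM in Tg-SwDI mice. Of these 8 markers 7 had a negative change, with a median of -0.10. Over all genes tested 15.2% had an unadjusted p under 0.05 in that comparison. Of the microglia markers 8 of 8 rose, with a summed level of 328 to 455 CPM in Non-Tg and 841 to 987 CPM in Tg-SwDI mice, and of the astrocyte markers 5 of 8 rose, with 4788 to 5149 and 6057 to 6943 CPM. Of the markers of the dentate gyrus 1 of 8 was called, Glis3, which was higher. Of those of the CA fields and of the neocortex 0 of 8 were called by edgeR or DESeq2, with 2 and 1 at an unadjusted p under 0.05. Neocortex markers, in 7 of 8 cases, had a negative change there, with a median of -0.16, as had 6 of 8 CA field markers (median -0.12), and 7 of 8 neocortex markers a negative one for the KO in Non-Tg mice (median -0.07). For the KO in Tg-SwDI mice 7 of 8 had a positive change (median 0.08), as did 7 of 8 in the interaction (median 0.16), and 0 of 8 were called by edgeR or DESeq2 in these. Of the striatum markers 7 of 8 had a positive change for that KO (median 0.13, 1 called by DESeq2). In the interaction 6 of 8 did (median 0.29), with 3 at an unadjusted p under 0.05, where 17.5% of all genes had one. With the transgene in KO mice 3 of 8 rose, where 20.8% of all genes were called. Of the thalamus markers 5 of 8 had a positive change in each of these contrasts, and edgeR called 0. Choroid plexus markers, 15 in all, summed to 310 to 6922 CPM in WT Non-Tg and to 405 to 5799 CPM in WT Tg-SwDI mice, and 0 were called by edgeR or DESeq2 or had an unadjusted p under 0.05. In KO mice, with the transgene, 4 of 8 CA field markers fell (median of the list -0.20), as did 2 of 8 dentate markers, Trpc6 by 0.43 and Plk5 by 0.35, while Glis3 rose by 0.39, and 1 of 8 neuron markers fell, Syt1 by 0.26. Of the choroid plexus markers 13 of the 15 rose with the transgene in KO mice, from 272 to 732 CPM in Non-Tg to 421 to 5658 CPM in Tg-SwDI mice. For KO against WT in Non-Tg mice all 15 had a negative change, with a median of -2.99. All 15 had an unadjusted p under 0.05 there, where 8.08% of all genes had one, and edgeR and DESeq2 called 0. In that comparison 8 of 8 oligodendrocyte and 7 of 8 microglia markers had a negative change, and 6 of 8 dentate and 6 of 8 CA field markers a positive one. For KO against WT in Tg-SwDI mice all 8 microglia markers had a positive change, with a median of 0.30, and an unadjusted p under 0.05 was found for 8, while edgeR called 1 and DESeq2 4. Over all genes 18.9% had an unadjusted p under 0.05 in that comparison. EdgeR also called 1 of 8 astrocyte markers, higher (2 at an unadjusted p under 0.05, 1 by DESeq2), and of the neuron markers 0 of 8 (1 at an unadjusted p under 0.05, 0 by DESeq2). No marker of these lists was at 0 in a whole group. The part of these differences in the levels of the 10 genes was not tested.

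Single mice were high or low for most of the 10 genes at once. Mouse 7 of WT Non-Tg was the lowest of its group for 10 genes, mouse 4 of KO Non-Tg for 9, mouse 4 of WT Tg-SwDI for 8 and mouse 2 of KO Tg-SwDI for 8. Mouse 3 of WT Non-Tg was the highest of its group for 9 genes, mouse 3 of WT Tg-SwDI for 10 and mouse 5 of KO Tg-SwDI for 7. Of the WT Tg-SwDI mice, 4 had at most 1 gene above its median over the 20 mice, and so did 1 mouse of each other group.

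**Figure D3:**
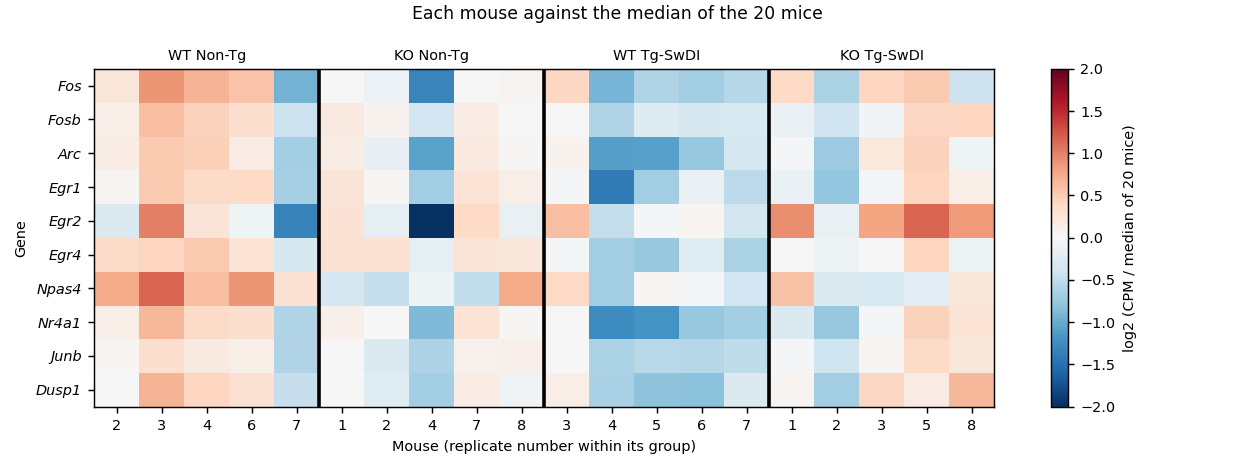
Each mouse (columns, replicate numbers within the 4 groups) and gene (rows), coloured by log2 of the CPM over that gene's median in the 20 mice, on a scale that ends at 2 in both directions. Columns tend to be of 1 colour, such as mouse 3 of WT Non-Tg with 10 of 10 genes above their median and mouse 4 of KO Non-Tg with 0 of 10.

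The co-variation was measured after the group means had been removed. Of the 45 pairs of genes 36 had an adjusted p under 0.05 by Pearson's r (20 mice, permutation of the mice within their groups, Benjamini-Hochberg over the 45 pairs) and 35 by Spearman's rho. The median r was 0.83 and the median rho 0.77. Pairs of other genes are not given here, so that these counts have no share over all genes beside them. Nr4a1 and Arc had the highest r, 0.94 (rho 0.89, permutation p = 2e-05, adjusted 6.43e-05), with 0.93 when the 2 mice farthest from the median were left out. Fos and Arc had an r of 0.92 (rho 0.89, permutation p = 1e-05, the smallest the permutations can give, adjusted 4.09e-05), and 0.84 without such mice. The lowest r among the 9 genes other than Npas4 was 0.57, between Egr4 and Dusp1 (rho 0.44, permutation p = 0.0204, adjusted 0.0255), and rho did not pass there (permutation p = 0.0832, adjusted 0.101).

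Npas4 had the lowest correlations of the 10 genes. Its 9 pairs had an r between 0.29 and 0.45 and a rho between 0.20 and 0.46, and 0 of them passed, the lowest adjusted permutation p being 0.0836, with Junb (unadjusted 0.0687). All 36 pairs without Npas4 passed by Pearson's r. Whether the r of Npas4 differed from those of the other genes was not tested. Mouse 4 of KO Non-Tg shows it in values, with Fos, Egr2 and Arc the lowest of its group at 6.17, 0.434 and 75.1 CPM and Npas4 second in its group at 12.3 CPM.

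**Figure D4:**
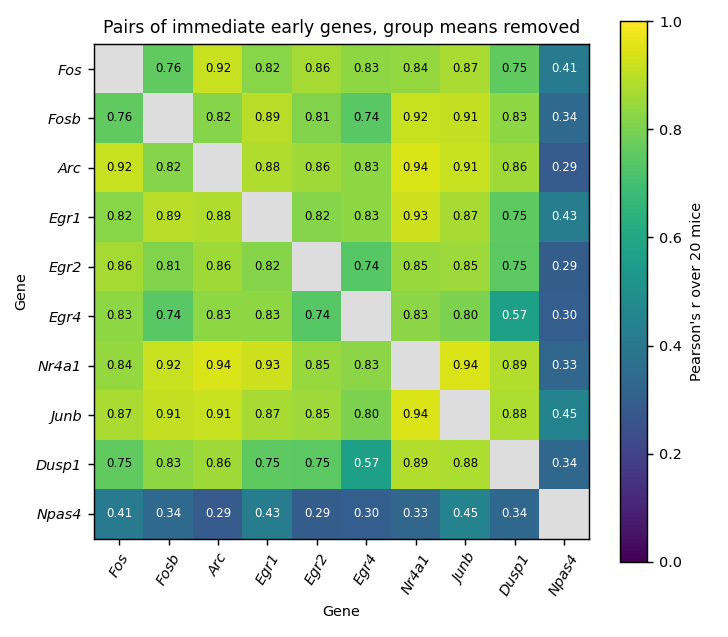
Pearson's r over the 20 mice between each pair of genes (rows and columns, Npas4 last), from log2 CPM after the group means were removed. The 36 pairs of the first 9 genes lie between 0.57 and 0.94, and the 9 pairs with Npas4 between 0.29 and 0.45.

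Since these genes varied together over the mice, the elements in their promoters are shown, from the RefSeq table of windows (GRCm38.p6) that run from 250 bases before a start site to 50 after it. The table held 8 of the 10 genes, and Arc and Egr1 were not among them. The motifs searched were the cAMP response element TGACGTCA, the AP-1 site TGANTCA, the EGR site GCGNGGGCG and the CArG box on both strands, and the TATA box TATAAA on the strand of the gene. Over 27025 genes, with 1 window a gene, they were found in 1.85%, 7.92%, 5.53%, 1.59% and 8.88% in that order. Over the 12054 of them that were also tested here the shares were 3.08%, 4.94%, 10.49%, 1.34% and 4.55%. These shares took the most upstream window of each gene, and by that rule 1, 0, 2, 0 and 2 of the 8 genes held the motif. The stretches below come from any window of a gene, and the CArG boxes of Egr2 lie in windows that the rule left out. The stretches of 30 bases that hold the matches, on the strand of the gene with the motif in capitals, are these.
Fos, TATA box, chr12:85473845-85473874 (+): tcacagcgcttcTATAAAggcgccagctga
Junb, TATA box, chr8:84978731-84978760 (-): tgacaaattcagTATAAAagcttggggctg
Dusp1, cAMP response element, chr17:26508597-26508626 (-): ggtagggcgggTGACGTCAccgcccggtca
Egr2, CArG box, chr10:67537787-67537816 (+): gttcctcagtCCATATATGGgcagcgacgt
Egr2, CArG box, chr10:67537484-67537513 (+): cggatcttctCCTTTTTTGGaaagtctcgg
Nr4a1, EGR site, chr15:101266775-101266804 (+): tgcgtcagtggCGCCCCCGCccctctccat
Fosb, EGR site, chr7:19310077-19310106 (-): gtgacgcaagcGCGGGGGCGggtcccggag

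The TATA box of Fos began 33 bases before the start site and the cAMP response element of Dusp1 143 bases before it. Both CArG boxes of Egr2 lay 72 bases before start sites downstream of its first one, and the TATA box of Junb lay at base 1 after the start site that the RefSeq table gives, upstream of the start in GENCODE M21 (84978718). The EGR sites began 60 bases before the start in Nr4a1, on the opposite strand, and 50 bases before it in Fosb. Npas4 and Egr4 held none of the 5 motifs in their windows, which says only that these letters are not in 300 bases. A match is a description of the letters and not a measured site.

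Beyond the 10 genes, those most like them over the mice included other rapid response genes. The 10 genes with the highest Pearson's r to the mean of the 10, after the group means had been removed, were Ier2 (0.84), Ier3 (0.83), Dusp6 (0.83), Midn (0.81), Lrrfip2 (0.81), Etv5 (0.80), Fbxl14 (0.80), Zfp948 (0.80), Klf10 (0.77) and Nr4a2 (0.77), over 20 mice and as a description without a test. Ier2, Ier3, Dusp6, Klf10 and Nr4a2 stood in a list of 32 other rapid primary response genes, of which 13 were among the 100 most like of 16097 genes. The median r was 0.47 over that list, 0.12 over 18 delayed activity-regulated genes and -0.03 over 26 regulators such as Creb1 and Srf, against -0.02 over all other genes. Of the regulators 2 had an r over 0.5, Mef2c at 0.67, rank 59 of the 16097 genes, and Elk4 at 0.52. Of the cell type lists, neocortex markers had the highest median r, 0.53, with Fezf2 at 0.60 and Tbr1 at 0.57. The summed neocortex markers lay between 297 and 408 CPM in the KO Tg-SwDI mice, the widest range of a group, and the part of neocortex tissue in the co-variation was not tested. The median r was -0.41 for microglia, -0.39 for astrocytes, 0.10 for neurons and -0.04 for choroid plexus markers. These values share the libraries and their scaling.

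**Figure D5:**
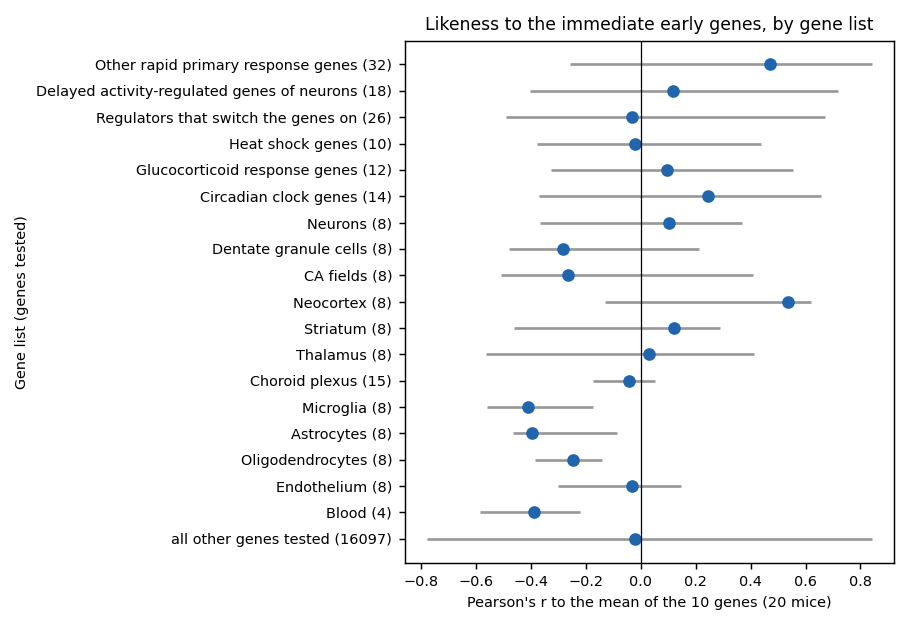
Pearson's r (x axis) of single genes to the mean of the 10 immediate early genes over 20 mice, group means removed, with the median (point) and range (line) of each list of genes (y axis, number of genes tested in brackets). Other rapid primary response genes and neocortex markers have the highest medians, 0.47 and 0.53, and microglia markers the lowest, -0.41.

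The wider activity programme was then compared between groups. Of the 32 other rapid primary response genes 3 were called in Tg-SwDI against Non-Tg WT mice, where 4.41% of all genes were called. Atf3, a stress-induced factor, rose by 1.45 (SE 0.18, edgeR, adjusted p = 2.52e-06) and Maff, a small MAF factor, by 1.11 (SE 0.23, adjusted p = 0.00249) on the log2 scale, while Dusp4, a MAP kinase phosphatase, fell by 0.29 (SE 0.07, adjusted p = 0.0138). Atf3 averaged 0.93 CPM in WT Non-Tg and 2.55 CPM in WT Tg-SwDI mice, and Maff 1.28 and 2.75 CPM. Microglia markers rose in 8 of 8 cases there, with a median of 1.14. The part of that rise in the levels of Atf3 and Maff was not tested. The list as a whole had 25 negative and 7 positive changes, with a median of -0.22. The close relatives of the 10 genes in it did not pass there, with log2 fold changes of -0.36 for Nr4a2, -0.24 for Nr4a3, -0.24 for Fosl2 and 0.09 for Jun. Averaged over WT and KO mice, edgeR called 9 of the 32 for the transgene, 4 higher and 5 lower. Over all genes 17.2% were called in that average. Nr4a2 was among the lower genes, at -0.37 (SE 0.10, edgeR, adjusted p = 0.0179). In KO mice 9 of the 32 were called, 6 higher and 3 lower with the transgene, where 20.8% of all genes were called, led by Atf3 at 1.73 (SE 0.18, adjusted p = 3.40e-08), Maff at 1.33, Zfp36 at 1.12 and Ccn1 at 0.93.

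Trib1, a pseudokinase, was the 1 gene of that list called for KO against WT in Tg-SwDI mice, at a log2 fold change of 0.48 (SE 0.10, edgeR, adjusted p = 0.0166), and in the interaction, at 0.74 (SE 0.14, adjusted p = 0.0199). Over all genes, 1.99% and 0.608% were called in these 2 contrasts, in that order. The r of Trib1 to the mean of the 10 genes was 0.63. The list had 22 positive and 10 negative changes in that comparison of KO and WT, with a median of 0.16, and 24 positive and 8 negative interactions, with a median of 0.22. In Non-Tg mice 0 of the 32 were called for the KO by edgeR or DESeq2, with 5 at an unadjusted p under 0.05, where 8.08% of all genes had one.

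Of the 18 delayed activity-regulated genes, which neurons transcribe after the first wave, 1 was called in Tg-SwDI against Non-Tg WT mice. This was Vgf, a neuropeptide precursor, at -0.41 (SE 0.10, edgeR, adjusted p = 0.0114). Over all genes 4.41% were called there. Bdnf, the neurotrophin, was at -0.22 and Gpr3, a receptor that raises cAMP, at -0.46, and neither passed (adjusted p = 0.229 and 0.0510). Pcsk1, a protease that processes prohormones, was lower in KO Tg-SwDI than in KO Non-Tg mice by 0.70 (SE 0.10, adjusted p = 4.87e-06) and lower than in WT Tg-SwDI mice by 0.49 (SE 0.10, adjusted p = 0.0111). In KO mice 7 of the 18 were called for the transgene, 3 higher and 4 lower, Homer1, a scaffold of the synapse, among the latter at -0.35, where 20.8% of all genes were called and CA field and neuron markers fell as given above. Averaged over WT and KO mice, edgeR called 9 of the 18 for the transgene, 2 higher and 7 lower. Pcsk1 at -0.44 and Vgf at -0.33 were among the lower. Over all genes 17.2% were called in that average.

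The 26 genes that switch immediate early genes on had 0 called for the transgene in WT mice by edgeR or DESeq2. There 4 of the 26 had an unadjusted p under 0.05, where 15.2% of all genes had one. In KO mice edgeR called 5 of the 26, 1 higher and 4 lower, where 20.8% of all genes were called. Grin2a, an NMDA receptor subunit, fell in KO Tg-SwDI against KO Non-Tg mice by 0.28 (SE 0.06, edgeR, adjusted p = 0.000560) and against WT Tg-SwDI mice by 0.24 (SE 0.06, adjusted p = 0.0266), and it was called in the interaction at -0.41 (adjusted p = 0.0199). Grin2b fell by 0.22 and Mapk3, the kinase ERK1, rose by 0.22 in KO Tg-SwDI against KO Non-Tg mice. In that comparison CA field markers and Syt1 fell as well, as given above, and their part in the values of Grin2a, Grin2b and Homer1 was not tested.

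Genes that answer heat shock, glucocorticoids or the circadian clock also change within hours, and lists of them were compared in the same way. Over all genes edgeR called 4.41% for the transgene in WT mice, 1.99% for the KO in Tg-SwDI mice and 0.608% in the interaction. Of the heat shock genes edgeR called 0 of 10 for the transgene in WT mice (1 at an unadjusted p under 0.05, and 1 by DESeq2) and 2 lower for the KO in Tg-SwDI mice, Hsph1 at -0.23 and Hsp90aa1 at -0.20. Of the 12 glucocorticoid response genes 3 rose with the transgene in WT mice, Plin4 by 1.73, Mt2 by 0.71 and Sult1a1 by 0.57, and 0 were called for the KO by edgeR or DESeq2 in either background, with 6 at an unadjusted p under 0.05 where the transgene was present and 0 where it was not. Over all genes 18.9% and 8.08% had one. Of 14 clock genes 3 were called for the transgene in WT mice, Ciart at -0.31 (SE 0.09, edgeR, adjusted p = 0.0405) and Cry2 at -0.25, both lower, and Bhlhe41 at 0.26, higher. The r of Ciart to the mean of the 10 genes was 0.47. Of the same 14 genes 3 rose for the KO in Tg-SwDI mice, Ciart by 0.80 (SE 0.09, edgeR, adjusted p = 1.99e-05), Dbp by 0.37 and Bhlhe41 by 0.31, and Ciart was called in the interaction at 0.70 (adjusted p = 0.0146). The median r to the mean of the 10 genes was -0.02 for heat shock, 0.10 for glucocorticoid response and 0.25 for clock genes, and the part of the time of day in their levels was not tested.

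MiR-34a represses mRNAs that pair with its seed, bases 2 to 8, so that the 3'UTRs of the 10 genes were searched for matches to it in GENCODE M21 (GRCm38), with the longest 3'UTR of each gene. The mature sequence in RefSeq, from the plus strand of chr4:150068473-150068494, has its seed in capitals.
mmu-miR-34a-5p: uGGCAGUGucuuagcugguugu
Fos, Fosb, Arc and Egr2 held 1 match each, 4 of the 10 genes, where 23.58% of 14707 genes tested held at least 1. These are the stretches of 30 bases, with the match in capitals.
Fos, chr12:85476487-85476516 (+): tccagacgtgcCACTGCCcgagctggtgca
Fosb, chr7:19302861-19302890 (-): gaagggcctgcCACTGCCgaccacaattca
Egr2, chr10:67542034-67542063 (+): tgcttcaatgtCACTGCCgctgatttgttt
Arc, chr15:74671021-74671050 (-): gcctgactcacaACTGCCAcacaaccatgc

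The matches of Fos, Fosb and Egr2 pair with bases 2 to 8 of the miRNA, and that of Arc with bases 2 to 7 followed by an A. For KO against WT the 4 genes with a match had log2 fold changes of 0.37 to 0.77 in Tg-SwDI mice and of -0.60 to -0.24 in Non-Tg mice. The 6 genes without one had 0.14 to 0.70 and -0.82 to -0.10. The ranges overlapped in both backgrounds, no gene of either kind was called by edgeR, and no test was made between them.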

How the data were processed

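Stranded mRNA libraries from the left hippocampus of 20 mice were sequenced on DNBSEQ. The authors used STAR (mm10) and featureCounts, and deposited the raw counts of each ENSEMBL gene in each mouse, not normalized or pooled. The strand setting and the rule for multi-mapping reads were not given in the sources used here. Samples were grouped by genotype in their labels.

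The test was the robust quasi-likelihood test of edgeR 4.0.16 (R 4.3.3, limma 3.58.1) with TMM scaling. After filterByExpr (minimum count 10, minimum total 15) 16107 of 39056 genes were left. A model with 1 mean per group, which left 16 residual degrees of freedom, gave 7 contrasts, adjusted over all genes by Benjamini-Hochberg at an FDR of 0.05. Intervals are 95%. Totals of 19549622 to 21066868 counts limit genes with few counts. Symbols came from GENCODE M21 and matched 38872 identifiers. Correlations used log2 CPM (prior count 2) minus group means, with 100000 permutations of the mice within groups, in Python 3.11.15.

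Alternatives were DESeq2 1.42.0, the exactTest, RLE factors, library size alone, no filter, a mean CPM of at least 1 (14411 genes), the compared groups alone, a replicate block, a prior count of 0.5 and each mouse left out. The 10 genes and the lists were chosen with earlier results of these data known. All 10 genes are named. From each list up to 4 called genes with the largest change are named, with a few uncalled ones chosen after their values were seen. The scripts were tested on simulated data. No 2 mice of a group agreed within sampling noise (mean chi-square per gene of 2.38 or more, where 1 is noise).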

Additional observations from a re-analysis of the deposited data

Results flagged for a closer look

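In 6 of the 40 combinations of gene and group, 1 mouse stood apart from the other 4 by more than Dixon's 95% critical value of 0.71 for the gap over the range, where chance gives about 1 in 20. Mouse 4 of KO Non-Tg was low for Fos, at 6.17 CPM with the next mouse at 14.1 CPM, and for Egr4, at 24.0 CPM with the next at 32.0 CPM. Mouse 3 of WT Tg-SwDI was high for Fos, at 20.5 CPM with the next at 10.3 CPM, and for Junb, at 84.6 CPM with the next at 59.1 CPM. Mouse 5 of KO Tg-SwDI was high for Egr4, at 36.8 CPM with the next at 27.6 CPM. Mouse 8 of KO Non-Tg was high for Npas4, at 22.1 CPM with the next at 12.3 CPM. The values of 1 mouse for several genes are not independent, since the genes varied together over the mice.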

How the results depend on the processing

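The number of immediate early genes called for Tg-SwDI against Non-Tg in WT mice was 1, and it became 4 with DESeq2, 3 with the exactTest and 0 with the compared groups alone, and lay between 1 and 3 with each mouse left out. For KO against WT in Tg-SwDI mice it was 0, and 1 with DESeq2. In the other comparisons the number was the same under every alternative run. Egr4 kept its direction in WT mice under all 28 alternatives and lost its call under 2, the compared groups alone (-0.73, adjusted p = 0.0709) and the replicate block (-0.75, adjusted p = 0.0553), while with the block Npas4 was called (-0.90, adjusted p = 0.0250), so that the number called was again 1. Over the mice left out, the adjusted p of Egr4 lay between 0.000557 and 0.0400. Replicate numbers were not treated as pairing the mice, since 2 of 16 same-numbered pairs had a correlation over 0.1, as had 25 of 134 pairs with different numbers. Such correlations cannot exclude that mice with the same number shared a source of variation. Egr2 changed sign in WT mice, to 0.26 without WT Non-Tg replicate 3 and to 0.00 without WT Tg-SwDI replicate 4, and ranged from -0.31 to 0.26 over the mice left out. For KO against WT in Tg-SwDI mice Npas4 changed sign, to -0.16 with the replicate block and to as low as -0.04 with a mouse left out. For KO against WT in Non-Tg mice Egr2 rose to as high as 0.09 with a mouse left out. For Tg-SwDI against Non-Tg in KO mice several genes changed sign. With the replicate block Nr4a1 fell to -0.20, Fosb to -0.12, Arc and Npas4 to -0.06 and Fos to -0.03 there. With single mice left out Nr4a1 fell as low as -0.11, Npas4 -0.07, Arc -0.04 and Fosb -0.03, and Egr1 rose to 0.09. Egr2, Junb and Dusp1 stayed positive in these fits. The number of correlated pairs lay between 35 and 41 under all alternatives. The causes were not tested. Groups of 5 mice and, for Egr2, as few as 9 counts limit the precision.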
